A study of Mus musculus with 8 samples.

Results

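Transcript clusters without a gene symbol were compared between cuprizone and control diet in mouse corpus callosum. The array is an Affymetrix Mouse Gene 1.0 ST array, on which a transcript cluster is a group of probes summarised to 1 value. A cluster was a member when the supplied platform annotation listed no symbol for its number, which held for 5534 of 28944 clusters. A further 23410 clusters had at least 1 symbol and are called named clusters below. The control group was 4 male wild-type C57BL/6 mice on normal diet, and the other group was 4 mice of the same strain, sex and genotype fed 0.25% cuprizone for 1 week. All were aged 8 weeks per the labels. Total RNA came from tissue dissected by hand, so fewer cells of a type and less RNA per cell cannot be told apart in any value below.

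Cuprizone is a copper chelator that kills oligodendrocytes, the myelin-forming cells, and is widely used to demyelinate the corpus callosum, a large tract of white matter. Type I interferons signal through STAT transcription factors and switch on antiviral genes in glia and other cells. Why a given cluster has no symbol here was not tested. Of 21900 protein-coding genes in the RefSeq table for GRCm38.p6, 2272 had no named cluster by their Entrez identifier, so known genes can be among the clusters without a symbol. No cluster was given a gene here. Cluster numbers largely follow the genome. Among 21697 pairs of consecutive single-symbol clusters, 94.3% lay on the same chromosome, and 99.2% of those ran in ascending order of gene start in RefSeq. Neighbours in number are therefore often neighbours on the chromosome, but a number is not a position. A symbol can also stand on clusters numbered far apart, as Glul does below, so a named cluster need not lie at its gene.

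The sequences of the members themselves were not used here. For 2 of the genes whose named clusters stood next to members that rose, the promoter in RefSeq (GRCm38.p6, 250 bases before to 50 after the gene start) is shown, because both genes are known to be induced by interferon. The capitals mark 2 copies of GAAA with any 2 bases between them, the core of the interferon-stimulated response element, searched on both strands and with overlapping matches kept. Rnf213 encodes a very large ubiquitin ligase with an ATPase core, and its promoter lies on the plus strand at chr11:119389849-119390148.
Rnf213: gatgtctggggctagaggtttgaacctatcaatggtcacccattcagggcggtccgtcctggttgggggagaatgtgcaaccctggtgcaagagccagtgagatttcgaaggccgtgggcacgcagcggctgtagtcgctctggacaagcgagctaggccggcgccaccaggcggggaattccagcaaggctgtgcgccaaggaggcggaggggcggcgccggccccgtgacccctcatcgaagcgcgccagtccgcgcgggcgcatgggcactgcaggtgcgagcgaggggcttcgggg
Irgm1 encodes an interferon-inducible GTPase that acts in defence against intracellular microbes, and its promoter lies on the minus strand at chr11:48871371-48871670.
Irgm1: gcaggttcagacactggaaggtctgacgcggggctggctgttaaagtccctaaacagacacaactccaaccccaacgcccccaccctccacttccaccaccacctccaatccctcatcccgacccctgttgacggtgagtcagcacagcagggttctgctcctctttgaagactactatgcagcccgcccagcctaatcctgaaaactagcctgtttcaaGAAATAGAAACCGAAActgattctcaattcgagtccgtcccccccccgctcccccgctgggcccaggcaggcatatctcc
The Irgm1 window held 2 overlapping matches and the Rnf213 window held 0, and 3.44% of the 32851 promoters in the table held at least 1. These are matches of letters and were not tested for binding.

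The third sequence is the hairpin of let-7a-2, a microRNA of the let-7 family, whose named cluster stood next to a member that fell. It lies at chr9:41536716-41536811 on the plus strand in GRCm38.p6, and the capitals mark both mature arms.
Mirlet7a-2: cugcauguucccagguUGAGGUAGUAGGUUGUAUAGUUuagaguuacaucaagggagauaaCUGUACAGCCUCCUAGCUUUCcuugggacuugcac
The arm on the left is let-7a-5p, shown again with its seed, bases 2 to 8, in capitals.
let-7a-5p: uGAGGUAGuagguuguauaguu

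As a check of the labels, Mog, a glycoprotein of the myelin surface, had a mean log2 level of 11.14 ± 0.12 in control and 7.36 ± 0.45 in cuprizone arrays (SD, n = 4 each), and Mbp, the main cytoplasmic protein of compact myelin, had 12.24 ± 0.08 and 10.96 ± 0.22. All 22 measured genes of the mature oligodendrocyte list (25 listed) were lower by limma with cuprizone. Of the interferon-response list (30 listed) 18 of 25 measured genes were higher, and of the microglial list (20 listed) 16 of 19. The 11 neuronal genes averaged 10.91 to 11.02 on the controls and 10.87 to 10.93 on the cuprizone arrays. The array medians over all clusters lay between 7.15 and 7.21. As a description across the members, Pearson's r was 0.9937 to 0.9959 between arrays within a group and 0.9914 to 0.9954 between groups. With 4 arrays a group, precision is limited by their number.

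Members had a lower median level than named clusters and a smaller share of them was called. Their median level was 6.24 on the log2 scale, against 7.45 for named clusters. By limma with a Benjamini-Hochberg adjusted p under 0.05 over all 28944 clusters, 138 members were called (2.49%), beside 6.47% of all clusters and 7.41% of named ones. Of these 85 were higher and 53 lower with cuprizone. That is 1.54% and 0.958% of the members, beside 3.79% and 2.68% of all clusters and 4.32% and 3.09% of named ones. Called changes of at least 1.5-fold were found for 31 higher members (0.56%) and 14 lower members (0.253%). The same rule held for 1.21% and 0.784% of all clusters, and for 1.37% and 0.91% of named ones. Without control replicate 3 there were 51 higher and 35 lower members, without control replicate 4, 56 and 31, and without cuprizone replicate 3, 54 and 33. A 2-fold change or more was reached by 17 of the higher and 4 of the lower members. The middle 90% of member log2 fold changes lay between -0.20 and 0.18, with a median of -0.01, the same median as over all clusters. All control arrays lay on one side of all cuprizone arrays in 131 of the 138 called members. The same held for 1840 of the 1873 called clusters over all, and for 1709 of the 1735 called named ones. Over all members, called or not, such separation was found in 5.89%, with 3.22% higher and 2.67% lower. It was found in 13.5% of all clusters (7.28% higher, 6.24% lower) and in 15.3% of named ones (8.24% higher, 7.09% lower). Of the members not called, 3 had an adjusted p of 0.0503 to 0.0504 and lay just outside the threshold, while the last 3 inside it had 0.0498 to 0.0499.

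**Figure D1:**
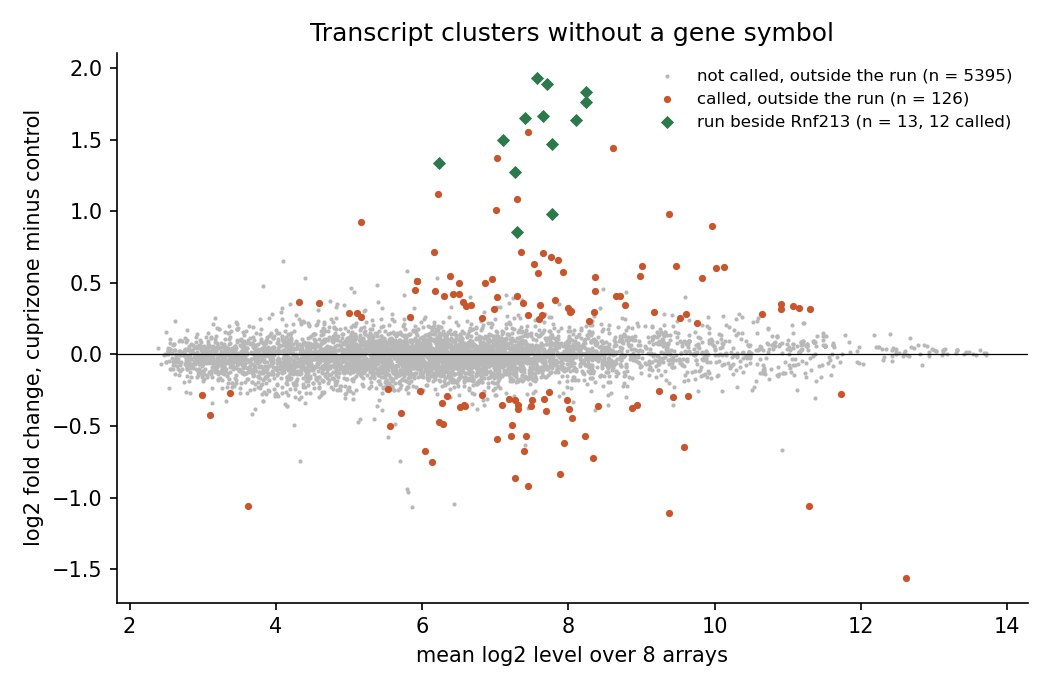
Log2 fold change (cuprizone minus control, vertical axis) against the mean log2 level over 8 arrays (horizontal axis) for the 5534 clusters without a symbol; each point is 1 cluster. Most points lie near 0, and the 13 clusters of the run beside Rnf213 (diamonds) lie between 0.85 and 1.93.

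The share of members called differed by level and by the distance to the next cluster number. In the dimmest quartile of all clusters, 13 of 2203 members were called (0.59%), against 1.53% of named clusters. In the third quartile, with levels of 7.18 to 8.69, 58 of 1001 members were called (5.79%), against 10.3% of named clusters, and in the brightest quartile 4.45% against 10.1%. The step from a cluster's number to the next number was 2 for 64.9% of the members and for 18.0% of the named clusters. Members with a step of at most 2 were called in 1.69% of cases, and the 409 members with a step of 10 or more in 9.54%, beside 9.49% of named clusters with such a step. The members with the widest step also had a median level of 7.88 and a median within-group SD of 0.09, against 6.17 and 0.13 for members with a step of at most 2. The shares are descriptions, and no difference between them was tested.

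**Figure D2:**
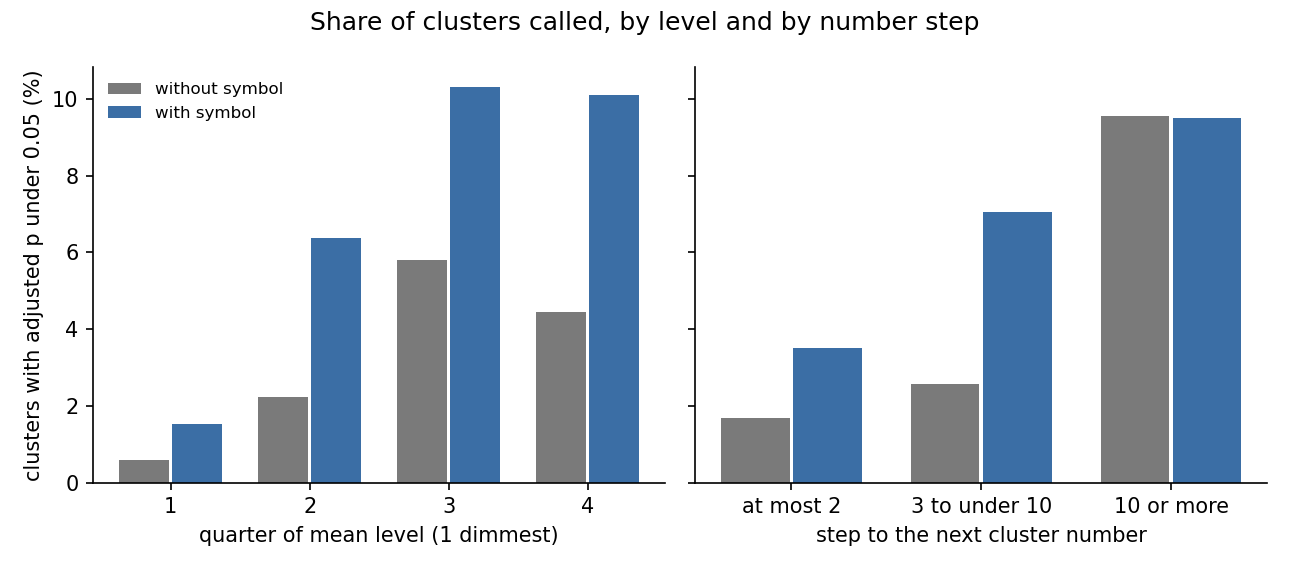
Percent of clusters with a limma adjusted p under 0.05 (bars from 0) by quartile of the mean level over all clusters (left) and by step to the next cluster number (right), for clusters without and with a symbol. The bars of the 2 kinds are nearly equal, 9.54% and 9.49%, only among clusters with a step of 10 or more.

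Many members were copies of each other. On all 8 arrays 313 members had values identical to those of at least 1 other member, in 79 sets with 50, 33 and 23 clusters in the largest 3, so that the 5534 members had 5300 distinct profiles. No set held a named cluster, and 2 of the 313 were called, beside 2.49% of all members and 6.47% of all clusters. The 2 were clusters 10590635 and 10598013, which are copies of each other. Identical values are 1 measurement, but the counts and shares given here keep every cluster, copies included. With each set of identical clusters counted once, 5300 members were tested, of which 87 were higher and 54 lower by limma.

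Runs of neighbouring members were formed next. A run was at least 3 members in numerical order with no named cluster between them, and 259 runs held 1247 members. Of these members 26 were called (2.09%), against 112 of the 4287 outside runs (2.61%) and 6.47% of all clusters. There were 248 runs with no called member, 9 with 1 and 2 with more. The 2 were the run beside Rnf213, with 12 of the 26 calls, and the 91 clusters beyond the highest named number, with 5. Both are described below, and most calls in runs thus came from them. The median log2 fold changes of the runs lay between -0.13 and 0.09 for the middle 90%, and those of their nearest named clusters, 3 on each side, between -0.10 and 0.09. A run median beyond 0.3 in size was found for 3 runs, and no set of nearest named clusters had one. The medians of the named clusters pool both sides and can hide a change on 1 side. For the run beside Rnf213 the 3 above had a median of 1.49, and both sides together -0.02. Run medians carry no test.

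**Figure D3:**
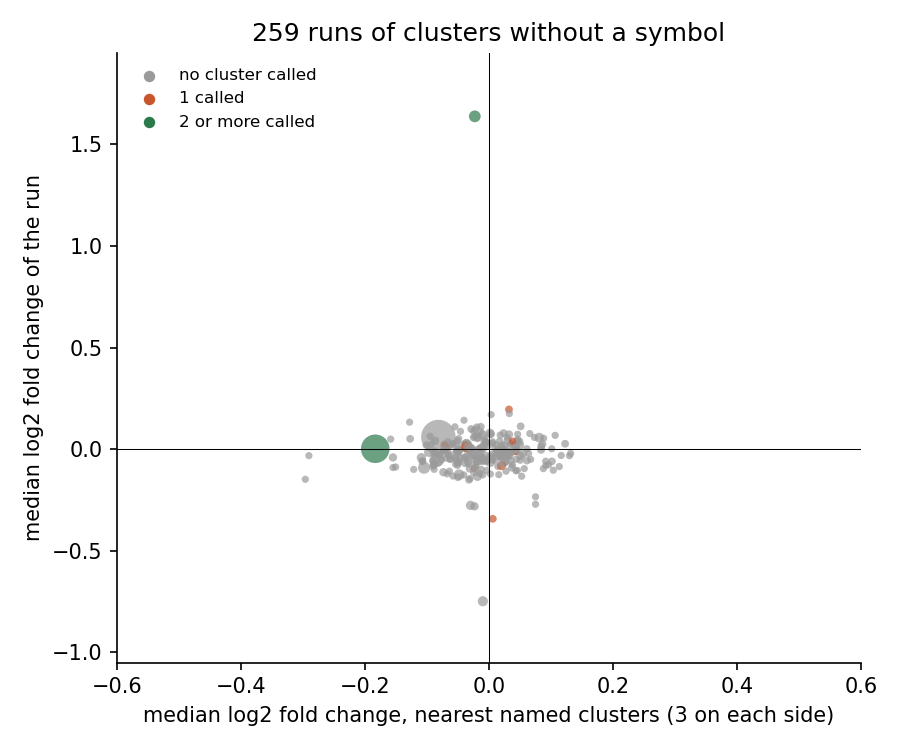
Median log2 fold change of each of 259 runs (vertical axis) against the median of the nearest named clusters, 3 on each side where present (horizontal axis); point area grows with the number of clusters, and colour gives how many were called. The run at 1.64 stands beside Rnf213, and the one at -0.75 is the run in which control replicate 3 was high. The horizontal value of the run beside Rnf213, -0.02, is a median over 6 clusters that include both Rnf213 clusters, which rose.

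The run of 13 clusters numbered next below Rnf213 rose almost throughout. By limma 12 of the 13 were higher, and its log2 fold changes lay between 0.85 and 1.93 with a median of 1.64. Directly above it in number were both named clusters of Rnf213, and directly below it was Slc26a11, an anion transporter. In RefSeq 0 other genes start between Slc26a11 and Rnf213. The run was singled out with earlier results of these arrays known, so its size is a description of a chosen example.

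The mean of the 13 clusters was 6.79, 7.03, 6.63 and 6.79 on control replicates 1 to 4, and 9.05, 7.24, 8.92 and 8.12 on cuprizone replicates 1 to 4. Cuprizone replicate 2 stood closest to the controls, and it was the lowest cuprizone array in all 13 clusters. Replicate 1 was the highest in 11 of them and replicate 3 in the other 2. Cluster 10383192, with the largest change of the run, read 6.50, 6.74, 6.41 and 6.79 on the controls and 9.32, 7.28, 9.06 and 8.50 on the cuprizone arrays. It rose by 1.93 ± 0.35 (log2 fold change ± SE, as in the values that follow), with a limma adjusted p of 0.00736, and its groups did not overlap. Cluster 10383168 rose by 1.83 ± 0.32 and cluster 10383198 by 1.89 ± 0.37, also without overlap. The called clusters 10383206 and 10383208 overlapped between groups, with cuprizone replicate 2 (6.82 and 5.78) below control replicate 2 (7.04 and 5.93). Cluster 10383210, at 6.81 to 6.94 in control and 6.95 to 8.31 in cuprizone arrays, did not pass (0.85 ± 0.26, limma adjusted p = 0.0829).

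The Rnf213 clusters had the same order of the cuprizone arrays as the run mean, but not of the controls. Cluster 10383214 read 7.32, 7.86, 7.52 and 7.66 on the controls and 10.14, 8.35, 9.89 and 9.21 on the cuprizone arrays, a rise of 1.81 ± 0.32 (limma adjusted p = 0.00592). Cluster 10383233 rose by 1.49 ± 0.29. Slc26a11 read 7.33 to 7.53 on the controls and 7.13 to 7.32 on the cuprizone arrays, and did not pass (-0.15 ± 0.07, limma adjusted p = 0.275). Endov, the first named gene above Rnf213 and an endonuclease acting on inosine in RNA, was at -0.03 ± 0.07. The change was thus seen in the run and in both Rnf213 clusters, and the named clusters next to them on either side had values near 0.

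The mean of the interferon-response list had the same order of the cuprizone arrays as the run. Its 25 measured genes averaged 6.52 to 6.75 on the controls and 8.75, 7.14, 8.70 and 7.88 on cuprizone replicates 1 to 4, and their part in the change of the run was not tested. The calls of the run depended on the variance model. When the prior variance followed intensity and was fitted robustly, 2 of its 13 clusters passed. With an ordinary t test 0 passed, although all 13 had an unadjusted p under 0.05 in both. Without cuprizone replicate 2 all 13 passed and the median was 1.98. Without control replicate 3, or without cuprizone replicate 3, 4 passed, without control replicate 1 or 4, 6, and without cuprizone replicate 1, 7. The median was positive throughout, at 1.37 to 1.98.

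**Figure D4:**
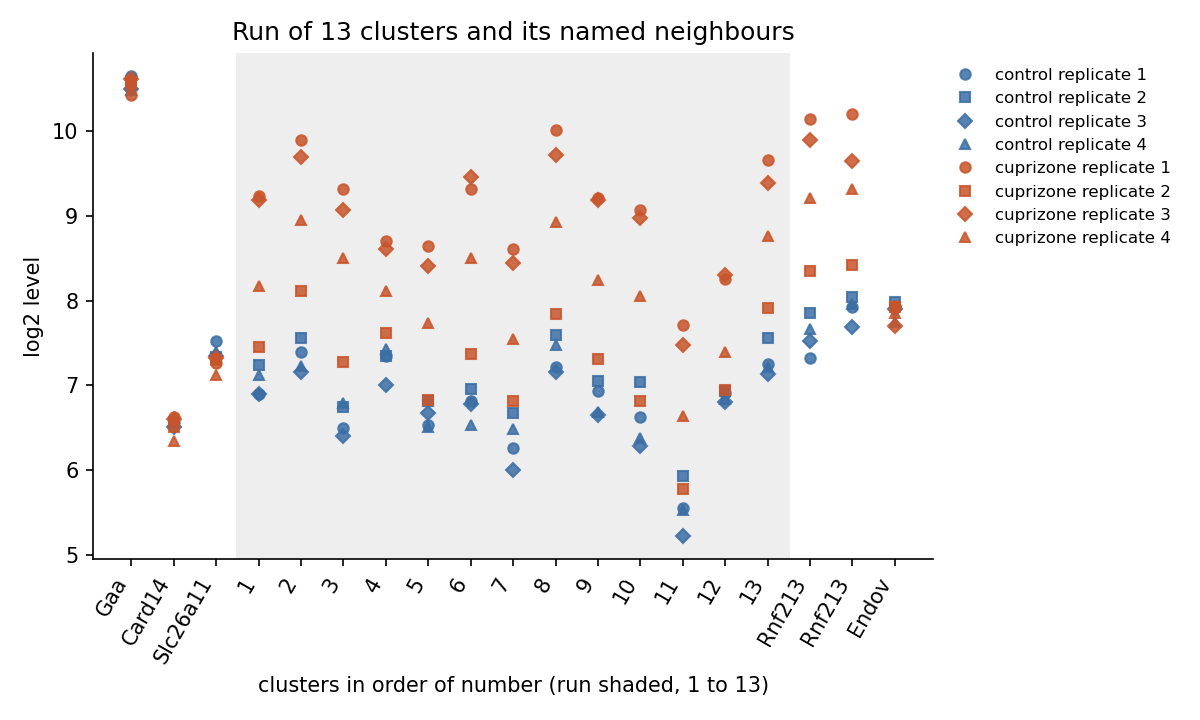
Log2 level on each of 8 arrays (vertical axis; blue control, orange cuprizone, marker shape for the replicate) for the 13 clusters of the run (shaded) and the 3 named clusters on each side, in order of number (horizontal axis). In the shaded part and in both Rnf213 clusters, cuprizone replicates 1, 3 and 4 lie above all controls, while replicate 2 lies close to them.

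The 3 largest increases outside that run also had cuprizone replicates 1 and 3 high and replicate 2 low. Cluster 10502791, numbered between Rpsa, a ribosomal protein gene, and Ifi44l, which belongs to an interferon-induced family, read 6.61, 6.78, 6.42 and 6.90 on the controls and 8.96, 7.09, 9.0 and 7.87 on the cuprizone arrays. It rose by 1.55 ± 0.36 (limma adjusted p = 0.0263), whereas Ifi44l itself was at -0.09. Cluster 10346191, between the signalling factor gene Stat4 and Nemp2, read 7.76 to 8.01 on the controls and 9.94, 8.32, 9.92 and 9.16 on the cuprizone arrays, a rise of 1.44 ± 0.29 (limma adjusted p = 0.0142). Stat4 was at -0.28 and Nemp2 at -0.08, and neither passed. Cluster 10406581, between Acot12 and Ankrd34b, rose by 1.37 ± 0.27, and control replicate 2 (6.81) lay just under cuprizone replicate 2 (6.85). The adjusted p of cluster 10502791 was 0.000853 to 0.157 over 20 alternatives, above the threshold in 10 of them.

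Cuprizone replicate 2 was the lowest cuprizone array in 57 of the 85 higher members, and in 45 of the 73 outside the run (61.6%). Among named clusters that were higher it was the lowest in 53.4%, and among all clusters in 22.1%. Among the 53 lower members it was the highest cuprizone array in 17 (32.1%), against 44.4% of lower named clusters and 26.1% of all clusters.

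The other 3 members outside the run among the 15 largest increases had smaller spreads. Cluster 10579331, next to the peptidase gene Pgpep1, read 6.35 to 6.65 on the controls and 7.34 to 7.63 on the cuprizone arrays, a rise of 1.01 ± 0.08 (limma adjusted p = 4.06e-05), and Pgpep1 rose by 0.25 ± 0.07. Cluster 10466886, next to Glis3, a zinc finger transcription factor, rose from 6.76 ± 0.22 to 7.84 ± 0.20 (1.08 ± 0.12), and Glis3 rose by 0.58 ± 0.08. Cluster 10396440, between the hypoxia factor gene Hif1a and Snapc1, read 5.48, 5.60, 5.64 and 5.92 on the controls and 6.87, 6.43, 6.90 and 6.91 on the cuprizone arrays, a rise of 1.12 ± 0.12. Neither Hif1a (0.17) nor Snapc1 (0.03) passed. Of these 15 members 9 belonged to the run beside Rnf213.

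The largest decrease was in the brightest called member. Cluster 10601888, between BC065397 and H2bfm, fell from 13.43, 13.26, 13.51 and 13.38 on the controls to 11.47, 12.13, 12.03 and 11.72 on the cuprizone arrays. The drop was 2.95-fold, or -1.56 ± 0.13 in log2 units, with a limma adjusted p of 4.79e-05. Both named neighbours stood within 0.07 of 0. Cluster 10428619, between Tnfrsf11b, a decoy receptor of bone biology, and Taf2, read 11.63, 11.86, 11.60 and 12.20 on the controls and 10.20, 11.42, 10.38 and 11.06 on the cuprizone arrays. Cuprizone replicate 2 was again nearest to the controls. The fall was -1.06 ± 0.24 (limma adjusted p = 0.0252), and the adjusted p was 0.00357 to 0.184 over 20 alternatives, above 0.05 in 7 of them.

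The next decreases were small in spread. Cluster 10386352, between Iba57, which builds iron-sulphur proteins, and the guanylate kinase gene Guk1, fell from 7.91 ± 0.09 to 7.00 ± 0.09 (-0.92 ± 0.07, limma adjusted p = 2.46e-05). Cluster 10410452, between A530095I07Rik and Ube2ql1, fell from 8.31 ± 0.09 to 7.47 ± 0.06 (-0.83 ± 0.06). Cluster 10583732, between the chromatin remodeller gene Smarca4 and Angptl8, read 8.75, 8.50, 8.79 and 8.75 on the controls and 7.94, 8.03, 8.05 and 7.87 on the cuprizone arrays. Cluster 10395198, between the laminin gene Lamb1 and Slc26a3, fell by 0.59 on the log2 scale, from 7.32 ± 0.09 to 6.73 ± 0.08. In none of these 4 cases did the nearest single-symbol cluster on either side pass.

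The other 4 of the 15 largest decreases not named elsewhere also stood between single-symbol clusters that did not pass. Cluster 10506571, between the deubiquitinase gene Usp24 and Ttc22, read 9.76 to 10.00 on the controls and 9.08 to 9.47 on the cuprizone arrays (-0.65 ± 0.09, limma adjusted p = 0.00153). Cluster 10351131, between the vesicle fusion gene Vamp4 and Kifap3, fell by 0.67 on the log2 scale, with cuprizone arrays spread from 5.32 to 6.04. Its limma adjusted p was 0.0209, and the adjusted p was above 0.05 in 6 of 19 alternatives. Cluster 10389524, between Vmp1, which acts in autophagy, and the clathrin heavy chain gene Cltc, read 8.00, 8.04, 8.51 and 8.46 on the controls and 7.67, 7.50, 7.43 and 7.93 on the cuprizone arrays. The gap between its groups was small, 7.93 against 8.00, and its change was -0.62 ± 0.14 (limma adjusted p = 0.023). Over 20 alternatives its adjusted p was above 0.05 in 7. Cluster 10362387, between Echdc1 and Gm4780, fell by 0.57 on the log2 scale. Cluster 10416897, numbered above Slain1, a microtubule plus-end protein, was called at -1.06 ± 0.25, but it was dim and its groups overlapped (3.43 to 4.57 on the controls and 2.60 to 3.46 on the cuprizone arrays). Slain1 fell by 0.64, and Ndfip2, on the other side, was at -0.09.

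**Figure D5:**
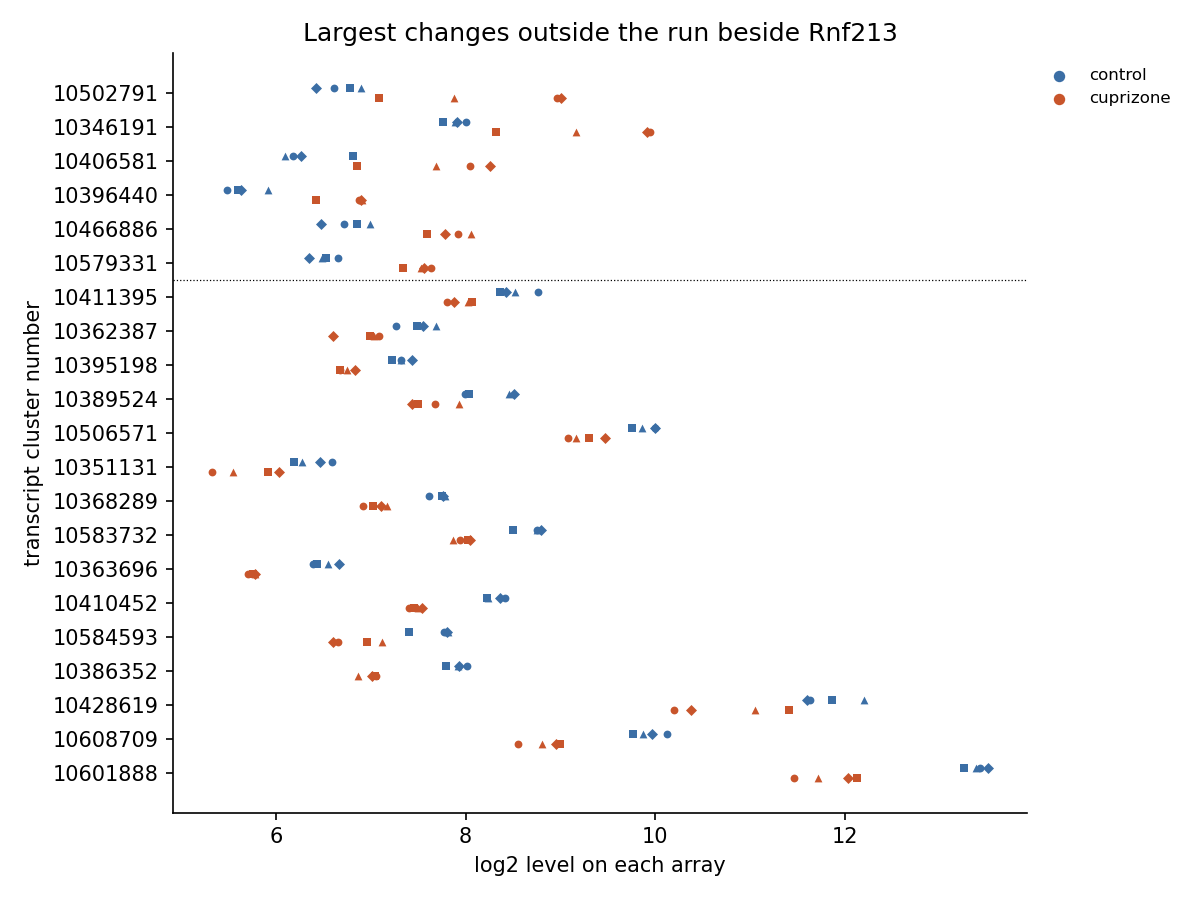
Log2 level on each array (horizontal axis; blue control, orange cuprizone; circle, square, diamond and triangle for replicates 1 to 4) for the largest changes by the naming rule outside the run beside Rnf213, 1 cluster per line. Above the dotted line are 6 that rose and below it 15 that fell. The rule took only called members whose groups did not overlap, so the orange and blue points are apart in every line.

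Some called members had a called named neighbour, in either direction. Of the 138 called members 25 had their nearest named cluster called (18.1%), 18 in the same direction and 7 in the opposite one. The run beside Rnf213 gave 10 of the 18. Among the other 126 called members the nearest named cluster was called for 15 (11.9%), 8 in the same and 7 in the opposite direction, against 6.39% for the 5396 members that were not called and 7.41% of all named clusters. Either side considered, 27 of the 126 stood next to a called named cluster (21.4%), against 12.9% of the members not called. For 22 of the 27 at least 1 such neighbour moved in the same direction. Neighbouring clusters are not independent measurements, and no test was made.

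Cluster 10385504 was numbered 4 above Irgm1. It read 4.82, 4.34, 4.90 and 4.73 on the controls and 5.96, 5.15, 6.05 and 5.32 on the cuprizone arrays, a rise of 0.92 ± 0.20 (limma adjusted p = 0.0181). Irgm1 rose by 1.69 ± 0.31, with the same order of the cuprizone arrays except that replicate 1 was the highest, at 9.50. Gm12185, the first single-symbol cluster above the member, was at 0.19 and did not pass. Cluster 10444830, between H2-Q5 and H2-Q10 of the major histocompatibility complex, whose class I genes present peptides to T cells, read 8.78 to 8.95 on the controls and 10.08, 9.48, 10.27 and 9.65 on the cuprizone arrays (0.98 ± 0.15, limma adjusted p = 0.00245). H2-Q5 was at 0.21 and H2-Q10 at 0.07, and neither passed, while a cluster with several symbols numbered 6 below the member was at 0.72 ± 0.19 (limma adjusted p = 0.0494). Cluster 10450699, between H2-T24 and H2-Bl, rose by 0.72 ± 0.12 and H2-T24 by 0.55 ± 0.15, and H2-Bl was at 0.11 and did not pass. Its nearest named cluster, with several symbols, was at 0.58 and did not pass. Class I genes are near-identical to each other in sequence, so these values are uncertain as to which copy they measure. Cluster 10381601 rose by 0.41 ± 0.06. Its nearest named cluster, Fzd2, numbered 2 above, was at -0.28 and did not pass (limma adjusted p = 0.0881), and Grn, which encodes the lysosomal protein progranulin, numbered 13 below, rose by 0.75 ± 0.10.

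Among decreases, cluster 10363696 read 6.39, 6.44, 6.66 and 6.55 on the controls and 5.70, 5.75, 5.78 and 5.78 on the cuprizone arrays (-0.76 ± 0.07, limma adjusted p = 8.48e-05). Its nearest named cluster, Rps6, numbered 3 above, was at 0.06 and did not pass, while Ctnna3, an alpha catenin of cell adhesion, numbered 20 below, was at -0.81 ± 0.09. Cluster 10368289 fell by 0.67 on the log2 scale. Its nearest named cluster, Taar9, numbered 2 below, was at -0.01, and Enpp3, an ectonucleotidase gene numbered 28 above, fell by 0.43. Cluster 10584593, numbered between Mirlet7a-2 and Mir100hg, the host of a microRNA group, read 7.77, 7.40, 7.80 and 7.81 on the controls and 6.65, 6.96, 6.60 and 7.12 on the cuprizone arrays (-0.86 ± 0.13, limma adjusted p = 0.00206). The Mirlet7a-2 cluster, whose hairpin is printed above, was at -0.52 ± 0.14 (limma adjusted p = 0.0484), and Mir100hg, at -0.14 ± 0.07, did not pass. The array values do not tell a mature microRNA from its precursor.

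Glul, the glutamine synthetase of astrocytes, was the symbol of 2 named clusters, 10350753 and 10374453, and both had a called member beside them. Their numbers are far apart, with other genes between them, and which of the 2 lies at the gene was not tested. Cluster 10350758, numbered 5 above the first, read 7.61 to 7.93 on the controls and 6.96 to 7.37 on the cuprizone arrays (-0.57 ± 0.10), and that Glul cluster fell by 0.54, while Zfp648, its nearest named cluster, was at 0.03. Cluster 10374450, numbered 3 below the second, read 7.21 to 7.56 on the controls and 7.76 to 7.83 on the cuprizone arrays (0.34 ± 0.08), whereas that Glul cluster fell by 0.49. The pair moved in opposite directions. Of all genes in the cell type and response lists, Glul was the only one to be the first single-symbol cluster on either side of a called member. Most of its list went the other way. Of the 17 genes in the astrocyte list 11 were higher and 3 lower by limma, with a median log2 fold change of 0.96.

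Opposite directions between a member and a called neighbour were seen for 8 pairs outside the run. Cluster 10411395 fell by 0.57 on the log2 scale. The cluster numbered 2 below it, with the symbol of the ribosomal protein gene Rps18, rose by 0.38. Cluster 10465770 fell by 0.27, from a control level of 3.51, beside the amino acid transporter gene Slc3a2, at 0.82 ± 0.11. Cluster 10542077, a bright member at 10.90 to 11.06 on the controls and 11.20 to 11.45 on the cuprizone arrays, rose by 0.32 ± 0.07, and Foxm1, a transcription factor of the cell cycle, numbered 2 above it, was at -0.55 ± 0.09.

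For 3 members the named clusters on both sides were called and moved in opposite directions. Cluster 10467425 read 9.51 to 9.65 on the controls and 10.04 to 10.17 on the cuprizone arrays (0.53 ± 0.06, limma adjusted p = 0.000323). Above it Aldh18a1, an enzyme of proline synthesis, rose by 0.49, and below it Pdlim1 fell by 0.51. Cluster 10527934 read 6.40 to 6.54 on the controls and 6.16 to 6.25 on the cuprizone arrays (-0.29 ± 0.06), between Cyp51, a demethylase of sterol synthesis, which fell by 0.65, and the Wnt receptor gene Fzd1, which rose by 0.42. Cluster 10538354 rose by 0.44 ± 0.11, between Creb5 at 0.32 and Chn2 at -0.61.

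Further members that rose stood between single-symbol clusters that did not pass. Cluster 10406852, between the forkhead gene Foxd1 and Rpl27a, read 9.44, 9.63, 9.41 and 9.57 on the controls and 10.45, 10.30, 10.33 and 10.57 on the cuprizone arrays (0.90 ± 0.08, limma adjusted p = 6.39e-05). Cluster 10347335, between Catip and Ctdsp1, rose by 0.71 ± 0.06, and cluster 10393887, between Mafg, a small partner of stress-response transcription factors, and Myadml2, by 0.66 ± 0.07. Cluster 10429564, between Ly6i and Ly6a2 of a family of small surface proteins, rose by 0.61 ± 0.12, with cuprizone replicate 2 again lowest at 10.04 against 9.77 to 9.87 on the controls. A cluster with several symbols next above it was also called.

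The longest runs had medians near 0. The run from 10563891 to 10564157 held 134 clusters with 55 distinct profiles and levels of 5.13 to 11.62. None was called by limma, 1 had an unadjusted p under 0.05, and the median log2 fold change was 0.06. Its mean level was 10.46 on control replicate 1, 10.76 to 10.81 on the other controls and 10.62 to 10.92 on the cuprizone arrays, so the groups overlapped. The named clusters directly above it carried several symbols and are not named. The run of 22 from 10515649 to 10515739, between the phosphatase gene Ptprf and Cdc20, had a median of -0.05, and that of 14 from 10413967 to 10414001, between Arhgap22 and Frmpd2, of -0.09. In both 0 clusters were called by limma, and 0 and 2 had an unadjusted p under 0.05.

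Beyond the highest numbered named cluster lay 91 members from 10608634 to 10608724, numbered in steps of 1. They were counted as 1 run, with named clusters below them only, and held 5 of the 26 calls in runs. What kind of clusters these 91 are, and whether they are neighbours on a chromosome, was not tested. Their levels ranged from 2.76 to 13.71, 4 were higher and 1 lower, and their median was 0.00. Cluster 10608709 read 10.13, 9.76, 9.97 and 9.88 on the controls and 8.56, 9.0, 8.95 and 8.80 on the cuprizone arrays. It fell by 1.11 on the log2 scale (limma adjusted p = 0.000121), against changes of 0.26 to 0.57 for the 4 that rose. Cluster 10608646 read 6.05 to 6.22 on the controls and 6.84, 6.28, 6.87 and 6.65 on the cuprizone arrays. Cluster 10608650 read 7.20 to 7.36 and 7.88, 7.58, 8.29 and 7.71.

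A run of 10 clusters from 10598013 to 10598036 was numbered directly below COX2, a subunit of cytochrome c oxidase encoded by mitochondrial DNA. Its brightest cluster, 10598025, had a mean level of 13.71, and its log2 fold change was 0.01 ± 0.07. Of the 10 clusters 1 was higher, 10598013 at the far end of the run, which was also the dimmest (0.52 ± 0.13, limma adjusted p = 0.0426). Its values were identical on every array to those of cluster 10590635, numbered between Ccr2 and 4930433N12Rik. Both hold the same measurement, which cannot be placed at either number, and both are in the count of called members. COX2 was at 0.02. The 5 brightest members of all, at mean levels of 13.57 to 13.71, were 10598025 and 10598034 of this run, 10608690 and 10608691 beyond the last named cluster, and 10452415. None of the 5 passed by limma, and their log2 fold changes lay between 0.00 and 0.03.

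In the run of 9 clusters from 10582882 to 10582922 1 control array stood apart. Its mean was 5.29, 4.89, 7.00 and 5.49 on control replicates 1 to 4 and 4.83 to 5.12 on the cuprizone arrays. Control replicate 3 was the highest array in 8 of the 9 clusters, up to 9.27 on cluster 10582882 against 7.00 to 7.49 on the other controls. The median log2 fold change was -0.75, and -0.21 without control replicate 3, and by limma 0 clusters passed with or without that array, with 0 at an unadjusted p under 0.05 in the full set. The third run beyond 0.3, with 4 clusters from 10479971 to 10479977 above Celf2, an RNA-binding splicing regulator, had a median of -0.34. Of these 4 clusters 1 passed, 10479975 at -0.35 ± 0.08.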

How the data were processed

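RNA of 8 mice, 150 ng each, was hybridised to Affymetrix Mouse Gene 1.0 ST arrays, per the labels' protocols. The submitters' processing notes name Affymetrix Expression Console, RMA and Transcriptome Analysis Console. The deposited values are log2 levels per transcript cluster. RMA as published corrects background, quantile normalizes and summarises probes, so a shift shared by most clusters cannot be seen. No detection call or scan batch was used.

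All clusters, named or not, were fitted with limma 3.58.1 in R 4.3.3 (2 groups, default moderated variances, no covariate, no filter), two-sided, with Benjamini-Hochberg adjustment over all. Called means an adjusted p under 0.05. The labels call the samples biological replicates and name no culture or litter. Same-numbered arrays of the 2 groups had correlations of deviations of -0.19 to 0.20. These values show no clear pairing by number, but so few arrays cannot exclude one. The fit and its calls were tested on simulated data with independent noise in each cluster. The forming of runs and the counts of neighbours were not tested in this way.

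The members and lists were chosen with earlier results of these data known. The text names the 15 largest changes each way among called members whose groups did not overlap, the run beside Rnf213, the 5 longest runs, runs with at least 2 calls, the brightest members and the nearest single-symbol clusters. Further members beside called neighbours, runs with a median beyond 0.3 and the run beside COX2 were chosen after their values were seen. Symbols came from the platform annotation, and 21698 of 21789 single-symbol clusters matched RefSeq by Entrez identifier. Printed sequences are from RefSeq, GRCm38.p6; the build of the array design is not given in the sources used here.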

Additional observations from a re-analysis of the deposited data

Results flagged for a closer look

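In groups of 4 arrays, the gap between the most distant array and its nearest neighbour was set against the whole range of the group, for 82 clusters and the runs described. Of 178 groups 7 had a share above Dixon's critical value for 4 values, and chance alone flags about 1 in 20 groups. Cluster 10396440 had 0.92, with cuprizone replicate 2 at 6.43 against 6.87 to 6.91 on the other cuprizone arrays. Cluster 10584593, beside Mirlet7a-2, had 0.907, with control replicate 2 at 7.40 against 7.77 to 7.81, and cluster 10583732 had 0.852, with control replicate 2 at 8.50 against 8.75 to 8.79. Cluster 10582884 had 0.836, with cuprizone replicate 3 at 3.65 against 4.07 to 4.15. Cluster 10582922 had 0.855, with control replicate 1 at 3.84 against 3.38 to 3.44. Cluster 10598029 had 0.856, with cuprizone replicate 3 at 13.54 against 13.40 to 13.42. The mean of the run from 10563891 to 10564157 had 0.862, with control replicate 1 at 10.46 against 10.76 to 10.81.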

How the results depend on the processing

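With each array left out in turn, 51 to 93 members were higher and 31 to 51 lower, and 4 to 13 clusters of the run beside Rnf213 passed. With the replicate number as a block, a pairing that the arrays neither showed nor excluded, 61 were higher, 37 lower and 7 of the run passed. The ordinary t test gave 38, 25 and 0, and a test against a 1.2-fold change 15, 9 and 4. When the prior variance followed intensity and was fitted robustly, 2 of the run passed. Of the 30 members named by the rule, 12 passed in every one of the 20 alternatives in which they were tested. The ordinary t test kept 14, the test against a 1.2-fold change 16, and the intensity-following prior 19, and no direction reversed. Runs of at least 2 clusters numbered 959 with 2647 members, and of at least 5, 51 with 568. Both named neighbours were called in the direction of the member for 0 called members. The clusters numbered beyond the highest named one were left out as an alternative chosen after seeing the data, which gave 81 higher and 52 lower. The annotation lists no cluster without a symbol, so that split of the members was not run. Signal over background is unknown here, which limits the reading of dim members.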
